A study of Mus musculus with 6 samples.

Results

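Mitochondrial ribosomal proteins are the protein subunits of the ribosome inside mitochondria. Their genes were taken by name as every gene in the count table whose symbol begins with Mrpl or Mrps and a digit, without entries marked as pseudogenes. This gave 77 of 48587 genes, 48 named for the large subunit (Mrpl) and 29 for the small subunit (Mrps). All 77 passed the filter on low counts, which 10394 genes passed in all. The genes were followed in microglia, the resident macrophages of the brain, of C57BL/6 mice at postnatal day 42. Polyadenylated RNA of about 1000 sorted cells per sample was sequenced from 3 wild-type samples and 3 samples with a knockout of Lyl1, a basic helix-loop-helix transcription factor known from blood-forming cells. No other allele or treatment is named in the labels, which give neither the gate of the sort nor whether the samples of a genotype came from separate animals. The p-values therefore reflect only how these samples vary, and that variation may be technical.

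The mitochondrial ribosome makes the few proteins that mitochondrial DNA still encodes, all of them core parts of the respiratory chain and the ATP synthase. Its ribosomal RNAs are transcribed inside the organelle, while every one of its proteins is encoded in the nucleus, made in the cytosol and imported. The small subunit reads the messenger RNA and the large subunit joins the amino acids, so a working ribosome needs both.

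Lyl1 itself was checked first, with 683, 1399 and 839 wild-type reads, against 205, 237 and 410 from the knockout. Total counts ran from 12753945 to 27378614 reads, and the limit set by a count of 0, which is 3 reads, came to 0.104 to 0.264 CPM and covers counting error only. Between 12827 and 15652 genes were detected per sample, most in wild-type sample 3 and knockout samples 2 and 3. Microglia markers summed to 57699 to 65733 CPM with all 10 genes above 10 CPM. Of 6 neuron, 6 neutrophil and 6 lymphocyte markers, none reached 10 CPM in any sample. Endothelial markers were highest in wild-type sample 1, at 154 CPM, with Cldn5 at 0 reads in every sample, and markers of border-associated macrophages were at 95.7 CPM there and at 23.7 CPM or less elsewhere. Red cell markers came to 227 CPM in knockout sample 1, to 65.2 CPM in knockout sample 2 and to no more than 1.23 CPM elsewhere. Astrocyte markers summed to 170 to 410 CPM, nearly all of it Slc1a3 and with Gfap at 0 reads, and oligodendrocyte markers to 47.4 to 379 CPM, with the highest value again in wild-type sample 1. Knockout samples 1 and 3 had Xist levels of 349 and 412 CPM, where no other sample passed 1.41 CPM. Xist is a transcript of female cells, and sex is not given in the sample details used here. By this transcript sex was partly confounded with genotype, and the effects of each cannot be told apart.

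The 77 genes together had a lower summed level in all 3 knockout samples than in any wild-type sample, and the share of the large and small subunit in that sum stayed within the spread between samples. Levels are written as CPM, reads of a gene scaled to a common library total after normalisation by TMM. In wild-type samples 1 to 3 they summed to 3683, 3220 and 2790 CPM, against 2550, 2598 and 2426 CPM in the knockout samples of the same numbers. The genotypes did not overlap, and the wild-type samples were spread more widely, with a mean of 3231 ± 447 CPM against 2525 ± 88.4 CPM for the knockout (SD, n = 3). The knockout mean was 0.781 of the wild-type mean. As a share of all reads, before any scaling, the members held 0.328%, 0.296% and 0.298% in wild type and 0.26%, 0.266% and 0.256% in knockout. With RLE scaling, upper-quartile scaling and library size alone the ratio of the sums was 0.745, 0.868 and 0.848, and the genotypes did not overlap under any of these. With the 3 libraries that detected the most genes it was 0.905. Wild-type sample 1, with the highest endothelial, oligodendrocyte and border-associated macrophage markers, also held the highest sum, and the part of these markers in it was not tested. Without that sample the ratio was 0.847 and the genotypes still did not overlap. Knockout sample 2, which lacked the Xist level of the other 2 knockouts, was at 2598 CPM, against 2790 CPM in wild-type sample 3. This is 1 sample, and the part of sex in the sums was not tested and cannot be told apart from genotype. In bulk samples, fewer cells of a type and less RNA per cell cannot be told apart.

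The large-subunit genes summed to 2272, 2091 and 1844 CPM in the wild-type samples, against 1693, 1714 and 1479 CPM in knockout. All knockout values lay below all wild-type values, with a ratio of means of 0.787. The small-subunit genes summed to 1411, 1129 and 946 CPM in the wild-type samples, against 857, 883 and 948 CPM in knockout, a ratio of 0.771. Here the genotypes met, since knockout sample 3 lay just above wild-type sample 3. The large-subunit sum divided by the small-subunit sum was 1.61, 1.85 and 1.95 in the wild-type libraries, against 1.98, 1.94 and 1.56 in the others. On the log2 scale this ratio was 0.85 ± 0.14 in wild type against 0.86 ± 0.19 for the knockout (SD, n = 3), and the difference of 0.01 was well under the pooled spread of 0.17 between samples.

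**Figure D1:**
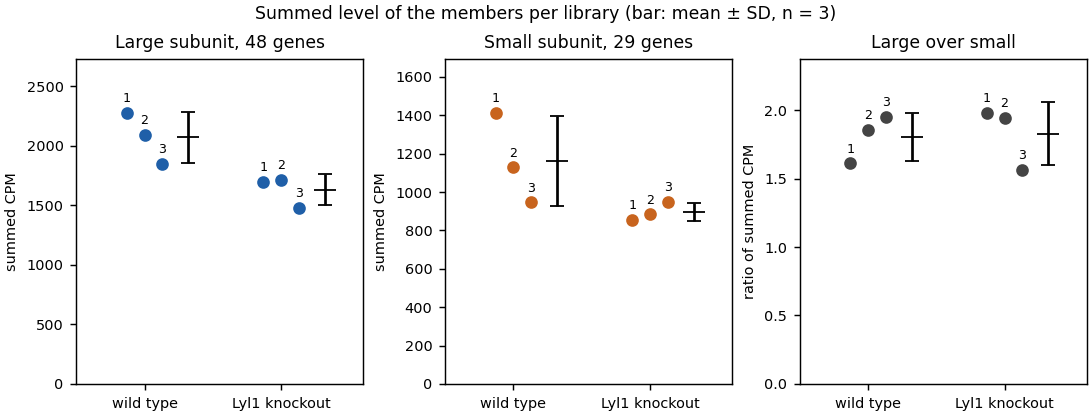
Summed CPM of the large-subunit genes (left) and small-subunit genes (middle) and their ratio (right), 1 point per sample numbered by replicate, with the mean ± SD over 3 samples as a bar. Large-subunit sums of the knockout samples, 1479 to 1714 CPM, all sit below those of wild type, 1844 to 2272 CPM, while the ratios of the genotypes overlap.

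No single member passed the test on its own. With edgeR's quasi-likelihood test, 0 of 77 members passed an adjusted p of 0.05, and neither did any other gene (0% of 10394), with the lowest adjusted p at 0.9999. DESeq2 also called 0 of the members and left the adjusted p of 3 undefined. At an unadjusted p under 0.05 it gave 2 members, Mrpl15 and Mrpl32, both lower, beside 626 of all 10394 genes in either direction. At an unadjusted p under 0.05, edgeR gave 1 member lower in knockout, Mrpl15, beside 1.67% of all tested genes, and 0 members higher, beside 1.16%. The common biological coefficient of variation of the fit was 1.27.

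More members had lower than higher fitted values. The fitted log2 fold change of knockout over wild type was below 0 for 56 of 77 members, or 72.7%, against 51.3% of all tested genes. It was below 0 for 33 of 48 large-subunit and 23 of 29 small-subunit genes. Medians were -0.42 for the large subunit and -0.46 for the small subunit, while the median of all tested genes was -0.03. With the 3 libraries that detected the most genes the small-subunit median was 0.14, on the other side of 0. In 7 members every knockout value lay below every wild-type value, beside 5.19% of tested genes, and in 0 members every knockout value lay above, beside 5.97%. The 7 members were Mrpl15, Mrpl20, Mrpl28, Mrpl32, Mrpl40, Mrps14 and Mrps24.

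**Figure D2:**
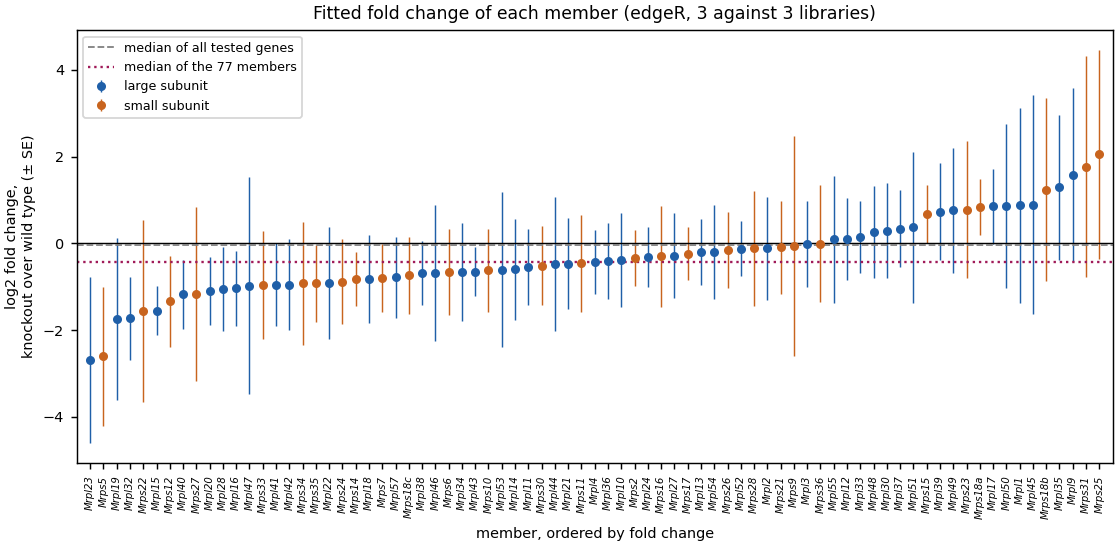
Fitted log2 fold change (knockout over wild type, edgeR) of the 77 members in order of size, with its standard error as a line; blue points are large-subunit and orange points small-subunit genes. The points run from -2.70 for Mrpl23 to 2.05 for Mrps25, 56 of them lie below 0, and most of the error lines cross 0.

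Among the large-subunit genes, Mrpl15 had the lowest unadjusted p. It lies on chromosome 1 (GRCm38, 4773206 to 4785739, minus strand) and encodes the counterpart of a bacterial protein of the same subunit. Its level was 160, 177 and 66.2 CPM in wild type and 48.3, 40.7 and 48.6 CPM in knockout. The 3 knockout samples lay close together, and wild-type sample 3 was much nearer to them than to the other wild-type samples. The fit gave a log2 fold change of -1.55 (SE 0.56), at an unadjusted p of 0.026 and an adjusted p of 0.9999 by edgeR. When each library was left out in turn, the unadjusted p stayed under 0.05 only without wild-type sample 3.

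Mrpl32, which is trimmed in the mitochondrion by the m-AAA protease before it joins the large subunit, was at 89.4, 49.2 and 56.4 CPM in the wild-type samples, against 18.1, 6.40 and 34.2 CPM in those of the knockout. The fitted change was -1.73 on the log2 scale (SE 0.95). Mrpl40, a protein of the central protuberance of the large subunit, was at 49.8, 108 and 53.3 CPM in the 3 wild-type samples, while the knockouts gave 46.8, 18.5 and 28.0 CPM. Both genes were below wild type in every knockout sample, but for Mrpl40 knockout sample 1 lay only a little under wild-type sample 1. Mrpl20 was at 66.7, 80.7 and 39.8 CPM in the wild-type samples, against 37.3, 24.9 and 25.1 CPM in those of the knockout. Mrpl28 was at 35.5, 64.4 and 37.2 CPM in the 3 wild-type samples, while the knockouts gave 11.9, 22.8 and 31.5 CPM. For these 2 genes too the gap between the genotypes was small beside the spread within them.

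Large-subunit genes with a high mean CPM mostly had overlapping genotypes. Mrpl43 was at 156, 77.7 and 83.5 CPM in the wild-type samples, against 52.7, 96.8 and 52.5 CPM in those of the knockout, and its exons overlap those of Twnk, the gene of the mitochondrial DNA helicase, on the opposite strand. Strand is not marked by this library kit, and the reads of such a pair cannot be told apart. Mrpl52 was at 51.9, 86.8 and 73.4 CPM in the 3 wild-type samples, while the knockouts gave 67.7, 89.9 and 37.8 CPM. Mrpl24 was at 54.0, 103 and 62.7 CPM in the wild-type samples, against 87.9, 60.5 and 27.7 CPM in those of the knockout. In each of these 3 genes the highest knockout value exceeded the lowest wild-type value. Mrpl38, also of the central protuberance, was at 137 CPM in wild-type sample 1 and between 30.9 and 60.4 CPM in the other 5 samples. Mrpl44, whose protein has a ribonuclease III fold, had 4 reads in wild-type sample 2 and between 672 and 1813 reads in the others. In each of these 2 genes 1 library stood far from its group.

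Of the 48 large-subunit genes, 15 had a fitted value above 0, and in none of them did the genotypes separate. Mrpl17 was at 8.46, 51.0 and 67.4 CPM in the 3 wild-type samples, while the knockouts gave 95.6, 72.3 and 61.4 CPM, with a log2 fold change of 0.85 (SE 0.86). Wild-type sample 1 was far below the other 5 samples, and with the 3 libraries that detected the most genes its fold change was near 0. Mrpl12, a stalk protein that also binds the mitochondrial RNA polymerase, was at 43.1, 16 and 45.6 CPM in the wild-type samples, against 29.4, 56.0 and 27.5 CPM in those of the knockout, with a fold change of 0.11. Mrpl9 and Mrpl35 had the largest fitted values above 0 in this subunit, 1.58 and 1.29, and both had very few reads in wild-type sample 1. Mrpl9 had 2, 8 and 357 wild-type reads, against 512, 349 and 353 from the knockout. Mrpl35 had 2, 765 and 314 wild-type reads, against 371, 1578 and 426 from the knockout. The largest fitted value below 0 belonged to Mrpl23, a protein at the exit of the peptide tunnel, with 190, 13 and 257 wild-type reads, against 8, 64 and 27 from the knockout. A pseudogene copy of Mrpl23 is counted separately, so reads may be split between the 2 entries.

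Among the small-subunit genes, Mrps5 had the fold change farthest below 0, at -2.61 (SE 1.61). It was at 133, 53.7 and 21.3 CPM in the 3 wild-type samples, while the knockouts gave 21.5, 0.102 and 12.5 CPM, where knockout sample 2 held 2 reads. Knockout sample 1 lay just above wild-type sample 3, so the genotypes overlapped. Mrps14 was at 63.5, 153 and 64.6 CPM in the wild-type samples, against 58.2, 44.7 and 55.7 CPM in those of the knockout. Mrps24 was at 47.9, 28.8 and 47.1 CPM in the 3 wild-type samples, while the knockouts gave 12.2, 28.6 and 26.0 CPM. In both genes the genotypes were separate, by a margin that for Mrps24 was under 1 CPM. Mrps24 shares exon sequence with Urgcp on the same strand.

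Mrps2, another gene of the small subunit, was at 123, 35.0 and 106 CPM in the wild-type samples, against 66.3, 90.9 and 53.0 CPM in those of the knockout. Mrps7, a counterpart of a bacterial protein that binds early in the assembly of the small subunit, was at 116, 102 and 24.8 CPM in the 3 wild-type samples, while the knockouts gave 61.7, 29.8 and 48.1 CPM. Mrps17 was at 105, 82.7 and 57.8 CPM in the wild-type samples, against 36.8, 81.1 and 90.6 CPM in those of the knockout. The genotypes overlapped in all 3. Mrps15 was at 52.1, 26.3 and 74.5 CPM in the 3 wild-type samples, while the knockouts gave 77.1, 61.7 and 105 CPM, with a log2 fold change of 0.67 (SE 0.67). It was among the 6 small-subunit genes with a fitted value above 0. Mrps25 had the highest fitted value of all members, 2.05, and rested on few reads, with 0, 1 and 339 in the wild-type libraries, against 265, 791 and 440 in the others.

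**Figure D3:**
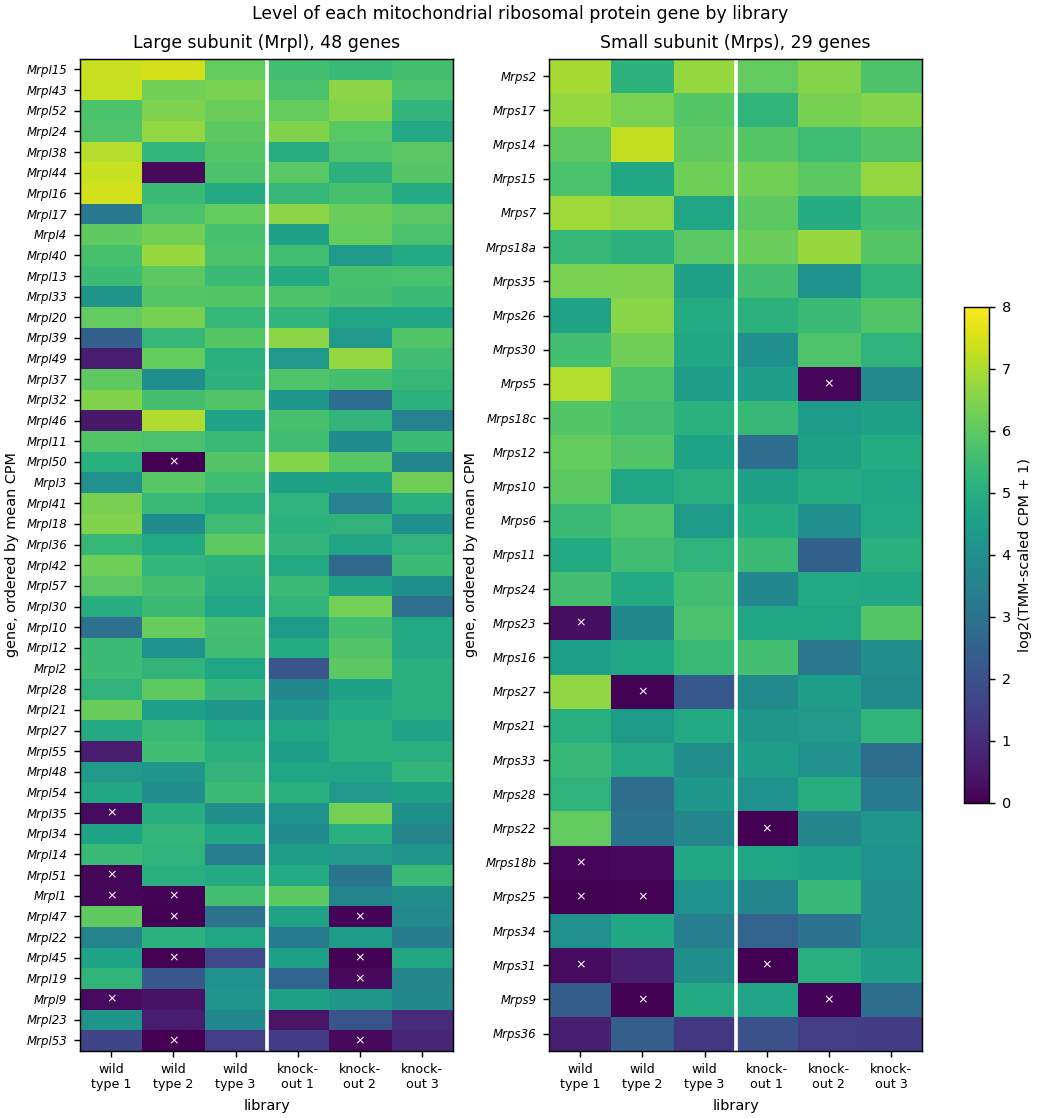
Level of every member in every sample as log2(CPM + 1), large subunit on the left and small subunit on the right, with genes in order of mean CPM and a white line between genotypes; a cross marks a value from 3 reads or fewer. Wild-type samples 1 and 2 hold the brightest cells and also 8 crosses each, while wild-type sample 3 and knockout sample 3 hold none.

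Some symbols depart from the place of their protein. Mrps18a and Mrps30 are named for the small subunit but sit in the large subunit of the mammalian mitochondrial ribosome, and Mrps36 is known as a part of the oxoglutarate dehydrogenase complex. Mrps18a was at 38.9, 34.6 and 60.4 CPM in the wild-type samples, against 73.4, 107 and 58 CPM in those of the knockout, a log2 fold change of 0.83 (SE 0.65). Only knockout sample 3 kept the genotypes from separating. Its paralog Mrps18c, in the small subunit, was at 56.8, 46.8 and 33.7 CPM in the 3 wild-type samples, while the knockouts gave 40, 19.5 and 22.8 CPM, with a fold change of -0.74. The other paralog, Mrps18b, had 1, 4 and 555 wild-type reads, against 565, 432 and 463 from the knockout. Mrps30 had a fold change of -0.51, and Mrps36 one of -0.01 at mean levels of 2.15 and 2.14 CPM. With Mrps18a and Mrps30 moved to the large subunit and Mrps36 left out, the log2 ratio of large to small subunit differed between the genotypes by 0.12, which was still under the pooled spread of 0.17.

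Levels between genes were compared per kilobase of the principal transcript annotated in GENCODE. The median member of the large subunit was at 28.8 CPM per kilobase and that of the small subunit at 18.8. Mrpl52 stood highest, at 162 CPM per kilobase over all samples, followed by Mrpl33 at 96.7, Mrps15 at 70.5, Mrps18a at 70.3 and Mrpl43 at 61.9. The samples of Mrpl52 ran from 90.4 to 215 CPM per kilobase and those of Mrpl33 from 34.5 to 122, so that even these neighbours in the order overlapped. The lowest were Mrps36 at 3.06, Mrpl19 at 2.43, Mrps25 at 2.29 and Mrpl53 at 1.57 CPM per kilobase. Some annotated transcripts are long, such as that of Mrpl17 at 7300 bases, and place their gene low on this scale.

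Detection differed between the samples. Of 77 members, 60 had more than 3 reads in every sample, and 17 dropped to 3 or below somewhere, 9 of the large and 8 of the small subunit. The same held for 39.5% of all tested genes. Members at 3 reads or fewer numbered 8, 8 and 0 in wild-type samples 1 to 3 and 2, 6 and 0 in the knockout samples. Low values in wild type were spread unevenly over the directions. Of the 21 members with a fitted value above 0, 10 were at 3 reads or fewer in a wild-type sample, and of the 56 below 0, 4 were. In a knockout sample this was so for 2 and 6 of them. The 11 members above 0 with more than 3 reads in every sample were Mrpl12, Mrpl17, Mrpl30, Mrpl33, Mrpl37, Mrpl39, Mrpl48, Mrpl49, Mrpl55, Mrps15 and Mrps18a.

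Directions were alike at higher and lower levels. Of the 31 members at a mean of 40 CPM or more, 23 were below 0, with a median of -0.43. Of the 46 under 40 CPM, 33 were below 0, with a median of -0.44. The median coefficient of variation of a member was 54.1% over the wild-type and 46.4% over the knockout samples, beside 87.4% and 56.6% for all tested genes. The highest value of a member fell in wild-type sample 1 for 29 members and in wild-type sample 2 for 22, but in wild-type sample 3 for only 4. Pearson's r of log2(CPM + 1) between 2 samples was taken across the 77 members. It ran from 0.109 for wild-type sample 1 and knockout sample 2 to 0.680 for wild-type sample 3 and knockout sample 3. These points are genes of the same libraries and share their depth.

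Members with and without a bacterial counterpart were set apart from textbook knowledge of the ribosome. The 16 small-subunit genes with one summed to mean levels of 803 and 555 CPM in wild type and knockout, a ratio of 0.691, and 15 of them had a fitted value below 0. The 12 small-subunit genes without one, with Mrps36 left out of both classes, had a ratio of 0.950, with 7 below 0. Mrps18a and Mrps30, of the large subunit, are among the 12 by their symbols, and the ratio of the 10 others was 0.855, with 6 below 0. Mrps18a and Mrps18b, with fitted values of 0.83 and 1.23, count among the 12. Yet both are paralogs of Mrps18c, which counts as having a counterpart, and Mrps18b stays among the 10. In the large subunit, the 30 genes with a counterpart summed to 1257 and 943 CPM, a ratio of 0.75, with 22 below 0. The 18 without one had a ratio of 0.844, with 11 below 0. As classed here, the genes with a bacterial counterpart had the lower ratio in each subunit, and this difference between the classes was not tested. Among the small-subunit genes without a counterpart, 6 values of 3 reads or fewer fell in wild-type samples 1 and 2, beside 1 among those with a counterpart.

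The genes stand on 17 chromosomes, with 10 on chromosome 11 and 8 on chromosome 17. By GENCODE M21 on GRCm38, 19 members (24.7%) start head to head with a protein-coding gene on the opposite strand within 1000 bases, against 7.23% of all protein-coding genes. Both shares leave out pairs that overlap at their starts by more than a short stretch, such as Mrpl46 and Mrps11. Mrpl32 starts opposite Psma2, a proteasome subunit, Mrpl40 opposite Hira, a histone chaperone, Mrpl49 opposite Fau, a protein of the cytosolic ribosome, and Mrps12 opposite Sars2, the mitochondrial seryl-tRNA synthetase. Exons of 32 members (41.6%) overlap an exon of another entry. Mrpl46 and Mrps11 overlap each other on opposite strands of chromosome 7. Mrpl46 had 5, 3299 and 507 wild-type reads and 1127, 731 and 309 from the knockout, and Mrps11 had 326, 1155 and 751 against 983, 90 and 933. Which of the 2 had more reads changed from library to library.

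Sequence upstream of 6 members is shown because these genes hold the highest level per length (Mrpl52), values higher in knockout (Mrpl17, Mrps18a and Mrpl9) or values separate between the genotypes (Mrpl32 and Mrpl20). Each is the stretch outside all GENCODE exons within the 250 bases before the RefSeq start, on GRCm38.p6, read on the strand of the gene, with matches to the motifs named below in capitals. They are chr14:54426659-54426908 (plus strand), chr7:105811100-105811337 (minus), chr17:46110754-46110985 (plus), chr3:94443086-94443317 (plus), chr13:14613166-14613239 (minus) and chr4:155802628-155802877 (plus).
Mrpl52: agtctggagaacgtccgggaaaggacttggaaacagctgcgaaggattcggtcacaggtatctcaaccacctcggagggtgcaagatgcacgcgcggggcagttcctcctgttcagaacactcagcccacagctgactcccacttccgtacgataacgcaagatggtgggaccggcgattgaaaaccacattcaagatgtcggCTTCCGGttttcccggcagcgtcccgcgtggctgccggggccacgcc
Mrpl17: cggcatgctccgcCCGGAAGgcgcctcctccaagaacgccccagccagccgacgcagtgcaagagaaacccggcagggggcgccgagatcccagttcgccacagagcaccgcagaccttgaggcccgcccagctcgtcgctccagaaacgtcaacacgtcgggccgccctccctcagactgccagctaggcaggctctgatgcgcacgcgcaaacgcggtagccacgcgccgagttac
Mrps18a: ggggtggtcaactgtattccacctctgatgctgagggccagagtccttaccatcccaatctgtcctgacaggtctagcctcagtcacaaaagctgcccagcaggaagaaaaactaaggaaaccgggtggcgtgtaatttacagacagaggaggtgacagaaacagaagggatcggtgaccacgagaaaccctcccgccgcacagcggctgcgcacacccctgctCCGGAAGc
Mrpl9: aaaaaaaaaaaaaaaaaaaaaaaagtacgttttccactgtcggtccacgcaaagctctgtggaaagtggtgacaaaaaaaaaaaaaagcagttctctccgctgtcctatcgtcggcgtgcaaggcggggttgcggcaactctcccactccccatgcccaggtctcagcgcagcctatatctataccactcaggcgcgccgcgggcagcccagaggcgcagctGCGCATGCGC
Mrpl32: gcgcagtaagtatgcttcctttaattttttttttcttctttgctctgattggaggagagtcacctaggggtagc
Mrpl20: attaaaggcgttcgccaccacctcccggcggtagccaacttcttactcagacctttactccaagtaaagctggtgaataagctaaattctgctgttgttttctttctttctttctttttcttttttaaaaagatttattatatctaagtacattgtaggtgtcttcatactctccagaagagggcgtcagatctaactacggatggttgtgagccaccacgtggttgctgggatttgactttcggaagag
In these stretches Mrpl52, Mrpl17 and Mrps18a hold 1 ETS match each, and Mrpl9 holds NRF1 letters at the end next to its start. The 300 bases searched below hold more outside the stretches. They are a further ETS match for Mrpl52, NRF1 letters for Mrpl17 and YY1 letters for Mrps18a and Mrpl32. For Mrpl32 the 74 bases are the whole gap between its first exon and that of Psma2, and hold no match. Its 3 places of NRF1 letters lie in annotated exons.

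Motifs were searched on either strand in the 300 bases from 250 before to 50 after the first RefSeq start, for the 68 of 77 members with an entry. They were the NRF1 core GCGCATGC, the ETS core CCGGAAG as bound by GABP, the YY1 core AAGATGGC and the E-box CAGATG known for dimers that hold Tal1 or Lyl1. NRF1 and GABP are known regulators of nuclear genes for mitochondria. The ETS letters stood in 35.3% of the members, against 20.9% of the tested genes and 9.12% of all genes in the table. The YY1 letters stood in 17.6%, against 5.64% and 2.88%. They hold the letters of a start codon, so some matches may lie at the start of a coding sequence. The NRF1 letters stood in 11.8%, against 6.15% and 2.80%. Any of these 3 stood in 52.9% of the members, against 29.7% of the tested genes. The E-box letters stood in 8.82%, against 11.1% of tested genes and 17.2% of all. Of the members with a fitted value below 0, 53.2% held any of the 3, and of those above 0, 52.4%. Singly, the NRF1 letters stood in 3 of 47 below 0 and 5 of 21 above 0, the ETS letters in 38.3% and 28.6%, and the YY1 letters in 17% and 19%. A match is a description of the letters and not a bound site.

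**Figure D4:**
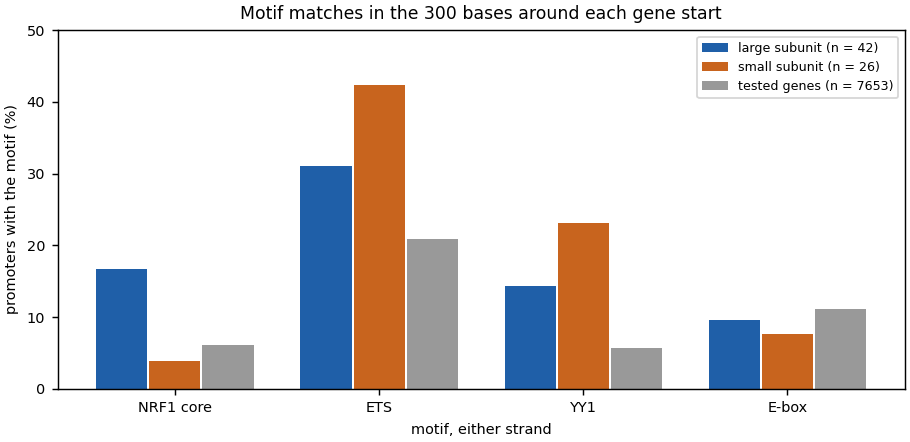
Share of promoters with each motif, in percent, for the large-subunit genes, the small-subunit genes and all tested genes with a promoter entry. Bars of the ETS and YY1 letters are higher for both subunits than for tested genes, while for the NRF1 letters only the large subunit, at 16.7%, is above the 6.15% of tested genes.

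The rest of the machinery was described in the same way, with lists of known genes. The 6 proteins of the mitochondrial ribosome found under other symbols summed to a ratio of 0.867, with 3 fitted values below 0. Gadd45gip1, a large-subunit protein at the tunnel exit also known as CRIF1, had 404, 466 and 587 wild-type reads, against 130, 138 and 337 from the knockout, and its scaled levels did not overlap. The fitted value was -1.75 (SE 1.28). Ict1, a peptidyl-tRNA hydrolase built into the large subunit, and Aurkaip1, a small-subunit protein, had fold changes of -0.84 and -0.73. Dap3, a GTP-binding protein of the small subunit, Chchd1 and Ptcd3, a pentatricopeptide repeat protein, had 0.89, 0.46 and 0.18. The genotypes overlapped in these 5, and none of the 6 passed the test.

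Genes that build the ribosome and modify its RNA, 28 of 35 listed symbols tested, had a median of -0.55 and 16 values below 0. Their summed level ran from 782 to 1190 CPM in the wild-type samples and from 710 to 761 CPM in the others. Those with the smallest unadjusted p were Rnmtl1, a ribosomal RNA methyltransferase, at 3.18, Mief1 at -2.67 and Tfb1m, the methyltransferase of the small ribosomal RNA, at -2.57. Each had 2 reads or fewer in at least 1 library. The values of Rnmtl1 were higher in every knockout sample, with 2, 2 and 163 wild-type reads, against 862, 261 and 623 from the knockout. Ddx28 was separate in the same direction, beside 5.97% of tested genes. In the other direction 0 genes of this list were separate, beside 5.19%. The translation factors, 13 of 17 listed symbols tested, had a median of -0.32 with 10 below 0. They had sums of 677 to 887 CPM in the wild-type and 637 to 654 CPM in the knockout samples. Their leading genes were Mtpap, the poly(A) polymerase of mitochondria, at 2.05, Pde12, which removes such tails, at -1.46 and Mtif3, an initiation factor, at 1.76. Every knockout value of Mtpap lay above every wild-type value, and 0 of the factors lay wholly below. In both lists the sums did not overlap, as for the members, but the median genes did. As a median difference in log2(CPM + 1) from the wild-type mean, the assembly list was at -0.36, -0.47 and 1.01 in wild type. In knockout it was at 0.47, -0.10 and 0.36. Translation factors were at -0.29, 0.32 and 0.18, against -0.37, -0.02 and -0.02. The members were at 0.15, 0.06 and -0.01, against -0.18, -0.21 and -0.19. Gfm2 alone held 330 of the 755 CPM of the translation factors in wild type.

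The aminoacyl-tRNA synthetases, which charge the transfer RNAs of the organelle, had a median of -0.17. Of 24 listed symbols 19 were tested, with 10 below 0. Lars2, the leucyl-tRNA synthetase, had 7231, 8953 and 4117 wild-type reads, against 3371, 3564 and 5247 from the knockout. Its level was 396 ± 223 CPM and 171 ± 19.3 CPM (SD, n = 3), without overlap. The fitted value of Lars2 was -1.22 (SE 0.43), at an unadjusted p of 0.0244 and an adjusted p of 0.9999 by edgeR. Fars2 was at 2.90 and Hars2 at -1.32, the phenylalanyl- and histidyl-tRNA synthetases. Fars2 was the 1 gene of this list with every knockout value above every wild-type value, beside 5.97% of tested genes. Lars2 was the 1 with every value below, beside 5.19%. The genes of mitochondrial transcription and RNA handling, 24 of 29 listed symbols tested, had a median of 0.01 with 12 below 0. Their ratio of sums was 1.01. Polrmt, the mitochondrial RNA polymerase, had 3, 1 and 291 wild-type reads, against 2090, 1214 and 534 from the knockout, with a fitted value of 3.60 (SE 2.03). Ptcd1, a pentatricopeptide repeat protein, was at 2.5, and Rexo2, an oligoribonuclease, at -1.36. In this last list 4 genes, Polrmt, Ptcd1, Lrpprc and Mterf1a, had every knockout value above every wild-type value, beside 5.97% of tested genes. Slirp had every value below, beside 5.19%. Mterf1a had 2, 0 and 54 wild-type reads, against 415, 257 and 146 from the knockout. Polrmt, Lrpprc and Mterf1a each had 9 reads or fewer in wild-type samples 1 and 2. Lrpprc and Slirp, picked after their values were seen, encode partners in 1 complex that stabilises mitochondrial messenger RNA. Lrpprc had 9, 6 and 592 wild-type reads, against 821, 1821 and 1971 from the knockout. Slirp had 1185, 1459 and 984 wild-type reads, against 226, 426 and 1295 from the knockout, and its scaled levels did not overlap. None of these genes passed the adjusted test.

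Both mitochondrial ribosomal RNAs were measured from polyadenylated RNA. The large one, mt-Rnr2, was at -0.77 with 19269, 16599 and 17980 wild-type reads, against 18702, 10363 and 15444 from the knockout, and the small one, mt-Rnr1, was at -0.32. Cytosolic ribosomal proteins, 82 of 91 tested, had a median of -0.23 with 50 below 0. Their wild-type sums ran from 2823 to 3331 CPM and their knockout sums from 2230 to 2842 CPM, a ratio of 0.832, with a small overlap. The lower sums in knockout were thus seen in more lists than that of the mitochondrial ribosome, though a sum can rest on a few high genes. Whether the lists differ was not tested.

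**Figure D5:**
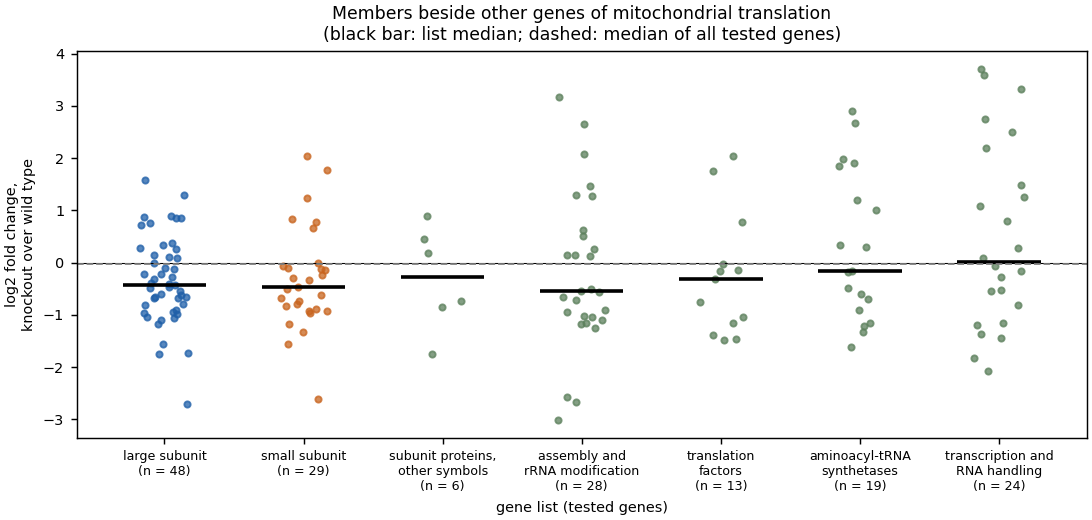
Log2 fold change of each tested gene (points) in the 2 subunits and in 5 lists of other genes of mitochondrial translation, with the list median as a black bar and the median of all tested genes, -0.03, as a dashed line. Medians of the 2 subunits, -0.42 and -0.46, lie below the dashed line, as do those of all other lists except transcription and RNA handling at 0.01.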

How the data were processed

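The authors deposited 1 table of raw read counts by gene symbol, with no normalization applied. Tools listed in the submitters' processing notes are featureCounts 1.5.1, STAR 2.5.2b, limma 3.28.21, CASAVA 1.8.2 and Subread, with the build GRCm38. Which annotation was counted, and whether by strand, is not given in the sources used here. Per the labels' protocols, cDNA was amplified by PCR, so reads that copy 1 molecule are counted separately. The 92 ERCC spike-in entries, with 21 to 66 reads per library, were left out.

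Counts were fitted in R 4.3.3 with edgeR 4.0.16 over the 10394 genes that passed filterByExpr (minimum count 10, minimum total 15), with TMM scaling and genotype alone, by the 2-sided quasi-likelihood F test adjusted by Benjamini-Hochberg, at a threshold of 0.05. Sums of CPM and list medians carry no test, since with 3 samples per genotype an exact permutation test cannot go below 0.1. Alternatives were other scalings, no filter on low counts, DESeq2 1.42.0, a replicate block and leaving out each library. The 3 libraries with the most genes detected, the level split at 40 CPM, the class without Mrps18a and Mrps30 and the ratio per kilobase of all exons were added after the data were seen. Members and lists were chosen with earlier results of these data known. The rule for named genes took the 6 members of each subunit with the highest mean CPM, up to 6 with the smallest p in each direction, members of at least 20 CPM without overlap, members with an unusual role, all proteins under other symbols and up to 3 genes per other list. Not all genes that the rule gave are described. Mrpl33, Mrpl46, Mrps11 and the genes at the ends of the order per kilobase were picked after their values were seen. Listed symbols without a match in the table, 12 in number, were left out. Promoter stretches come from RefSeq and positions from GENCODE M21.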

Additional observations from a re-analysis of the deposited data

How the results depend on the processing

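Under TMM the median of the large subunit was -0.42. It was -0.48 with RLE scaling, -0.27 with upper-quartile scaling, -0.31 with library size alone, -0.37 with no filter on low counts, -0.48 with DESeq2 and -0.23 with the 3 libraries that detected the most genes, and it ranged from -0.45 to -0.25 when each library was left out in turn. Upper-quartile scaling also moved the median of all genes, to 0.09, and under every setting the median of the members stayed 0.28 to 0.48 below that of all genes. With those 3 libraries the small-subunit median was 0.14, the log2 ratio of large to small subunit differed by -0.16, the summed level was 0.905 of wild type, Mrpl17 was at -0.0040 and Mrpl9 at -0.17, where the lone wild-type sample is assumed to vary like the knockout samples. The members lower at an unadjusted p under 0.05 numbered 0 with no filter, 0 with those 3 libraries, 2 with DESeq2 (Mrpl15 and Mrpl32) and 0 to 1 when each library was left out. The members higher numbered 0 to 4, the 4 without wild-type replicate 3 (Mrpl1, Mrpl9, Mrps18b and Mrps25, each low in wild-type samples 1 and 2), where 1158 of 11061 tested genes passed, against 295 of 10394 with all libraries. Members lower without overlap numbered 4 with upper-quartile scaling and 4 with library size alone, 5 with no filter and 9 to 19 when each library was left out. Those higher numbered 1 to 9 in the latter, where fewer samples separate more easily. The shares over all tested genes are not given for these settings, so these counts cannot be set against them. The cause of the other shifts was not tested. Adjusted calls among the members were 0 in every setting, while over all genes DESeq2 called 34 higher and 18 lower, and edgeR with no filter 3 higher and 5 lower. Same-numbered samples did not deviate together (correlations 0.01, -0.00 and 0.03). With the replicate block 48 members were below 0, the large-subunit median was -0.24 and 0 members were lower at an unadjusted p under 0.05. Members at 3 reads or fewer numbered 8 both in the shallowest and in the deepest library.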

Other observations

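Entries marked as pseudogenes of the family were left out of the members. Mrpl23-ps1 had 45, 41 and 39 wild-type reads, against 32, 35 and 35 from the knockout, an even level beside that of Mrpl23 itself. Mrpl48-ps had 0, 0 and 2 wild-type reads, against 5, 5 and 3. The 3 pseudogene entries of Mrps36 had 1 read in all. Since the deposited counts assign reads by gene symbol, the counts of Mrpl23, Mrpl48 and Mrps36 are uncertain to the extent that reads of near copies were split or dropped.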
